A study of Mus musculus with 9 samples.

Results

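Oxidative phosphorylation genes were measured by RNA-seq in mouse liver after acetaminophen overdose, in 106 of the 28956 gene rows of the count table. They were taken by name: nuclear subunits and assembly factors of complex I to V (symbols beginning Nduf, Sdh, Uqcr, Cox4 to Cox8 or Atp5) and mitochondrially encoded genes other than transfer RNAs. A further condition was 10 or more raw counts in at least 3 of 9 libraries. Of 110 rows that matched the names, 106 met the count condition: 89 nuclear genes, 13 mitochondrially encoded protein genes, 2 mitochondrial ribosomal RNAs and 2 processed pseudogenes (Atp5k-ps2 and Atp5l-ps1) that the name rule, read literally, keeps. All 106 also passed the filter on low counts of the fit, so each was tested. The 4 rows left out were Cox8b, with at most 4 counts in any library, and the pseudogenes Uqcrh-ps2, Atp5l-ps2 and Uqcrh-ps1, with at most 5, 6 and 16 counts. The members nearest the limit on the inner side were Cox4i2 (2 to 13 counts) and Cox6a2 (4 to 22 counts), each with 10 or more counts in 4 libraries.

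The study set 3 groups of 3 C57BL6J mouse liver samples beside each other, all from animals aged 8 weeks that had received acetaminophen (APAP) at 300 mg/kg into the peritoneum. The APAP_MSC group also received 500000 MSC into a vein 90 min after APAP, the APAP_HDF group 500000 HDF by the same route and at the same time, and the APAP group no cells. The labels give the injected cells only by these abbreviations. The series title places the measurement at 24 h. Every group carries the overdose, so there is no uninjured liver in these comparisons, and APAP_HDF is a second cell-injected group beside APAP_MSC. The labels call the cells hepatocytes, while the protocol describes a piece of whole liver. The 11 matched hepatocyte markers summed to 124400 to 141000 CPM (counts scaled by library size) in APAP_MSC, 115000 to 149300 CPM in APAP_HDF and 121400 to 141900 CPM in APAP livers, and markers of the other liver cell types were detected as well. In such bulk samples, fewer cells of a type and less RNA per cell cannot be told apart.

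Oxidative phosphorylation makes ATP at the inner mitochondrial membrane. Complex I (NADH dehydrogenase) and complex II (succinate dehydrogenase) pass electrons through coenzyme Q to complex III (cytochrome bc1) and, by cytochrome c, to complex IV (cytochrome c oxidase), and the proton gradient that this builds drives complex V (ATP synthase). Complex II is built from nuclear genes alone, whereas the other complexes combine nuclear subunits with core subunits read from the mitochondrial genome, which is transcribed as long precursors by its own RNA polymerase. In the liver, acetaminophen is converted to a reactive metabolite that binds mitochondrial proteins, and loss of mitochondrial function is a known step of this injury.

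Transcription of nuclear subunit genes is classically linked to the factors NRF1, GABP (an ETS family factor), ERR and YY1. In RefSeq promoter windows of build GRCm38.p6, from 250 bases before to 50 bases after the start, 74 of the 89 nuclear members were found. Both strands were searched for 1 exact word per factor. The YY1 word AAGATGGC lay in 11 of 74 members (14.9%), against 3.19% of all 27025 genes with a window. Most of its matches lay after the start, as in Ndufa9 (29 bases) and Ndufs4 (35 bases). The word contains ATG, and whether its matches cover start codons was not checked. The NRF1 word CGCATGCG lay in 11 members (14.9%) against 2.07% of all genes, the ERR word TCAAGGTCA in 2 members (2.7%) against 0.466%, and the ETS word CCGGAAGT in 5 members (6.76%) against 4.31%. Any of the words lay in 27 members (36.5%), against 9.48% of all genes, and Uqcr11 and Atp5j held 2 of them without overlap. Among members past the test in APAP_MSC against either other group, 7 of 23 with a window held a word (30.4%), against 20 of 51 other members (39.2%). The NRF1 word was shortened after matches of a form with 10 letters, 1 more at each end, had been seen. With that longer form the NRF1 word lay in 7 of 74 members (9.46%) against 1.07% of all genes, and any word in 25 members (33.8%) against 8.67%. Among members past the test 5 of 23 then held a word (21.7%), against 20 of 51 other members (39.2%), and Ndufa8 held none.

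The windows of 4 of the 9 members called in APAP_MSC against both other groups are shown, 5′ to 3′ on the strand of the gene. The matched word is in capitals. They are examples and do not stand for the called members, of which 7 of 23 with a window held a word. Ndufb10 (chr17:24724374-24724673, minus strand), which had the highest log2 fold change among members with a mean of at least 5 CPM, held none of the words. Ndufa8 (chr2:36049289-36049588, minus strand), whose calls below were kept, with those of Ndufb10, in the most fits that left out a library, held the NRF1 word, which reads the same on both strands. Sdhd (chr9:50603800-50604099, minus strand) held the ERR word and Atp5f1 (chr3:105959214-105959513, minus strand) the YY1 word, both as the reverse complement.
Ndufb10: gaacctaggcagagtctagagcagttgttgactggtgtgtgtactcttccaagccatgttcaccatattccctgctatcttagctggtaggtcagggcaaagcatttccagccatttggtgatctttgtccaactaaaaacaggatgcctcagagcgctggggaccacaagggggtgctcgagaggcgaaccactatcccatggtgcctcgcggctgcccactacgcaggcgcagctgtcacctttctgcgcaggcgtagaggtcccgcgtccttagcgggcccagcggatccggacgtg
Ndufa8: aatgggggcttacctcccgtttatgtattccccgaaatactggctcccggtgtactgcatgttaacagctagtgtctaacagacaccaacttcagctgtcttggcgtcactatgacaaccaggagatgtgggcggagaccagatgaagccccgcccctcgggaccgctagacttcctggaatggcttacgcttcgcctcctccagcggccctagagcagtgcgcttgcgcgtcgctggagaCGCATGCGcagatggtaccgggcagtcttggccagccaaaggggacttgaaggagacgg
Sdhd: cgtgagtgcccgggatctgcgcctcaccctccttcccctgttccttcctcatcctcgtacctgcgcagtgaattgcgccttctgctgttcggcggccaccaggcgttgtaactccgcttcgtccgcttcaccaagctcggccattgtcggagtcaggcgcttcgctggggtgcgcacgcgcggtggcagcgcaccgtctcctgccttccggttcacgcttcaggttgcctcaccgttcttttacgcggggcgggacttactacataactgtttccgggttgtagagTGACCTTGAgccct
Atp5f1: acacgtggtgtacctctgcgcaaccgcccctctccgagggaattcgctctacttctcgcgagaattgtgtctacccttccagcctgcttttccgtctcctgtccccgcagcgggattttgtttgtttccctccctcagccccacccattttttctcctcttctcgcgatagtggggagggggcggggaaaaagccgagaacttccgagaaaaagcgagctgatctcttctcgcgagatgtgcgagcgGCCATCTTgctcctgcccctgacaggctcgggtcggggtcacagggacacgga
A word match is a description of the sequence, and binding was not measured here.

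Library totals, rounded to 5 digits, ran between 53267000 and 63176000 counts. CPM values below use library sizes scaled by TMM, whose factors were 0.934 to 1.11. The table's headers give the group but no replicate number, so libraries are numbered 1 to 3 by column within a group. The labels name 3 samples a group without saying that each is a separate animal, so the p-values reflect only how far these samples spread, and that spread may be technical. The median SD of log2 CPM of the members was 0.0934 in APAP_MSC, 0.182 in APAP_HDF and 0.0974 in APAP livers. Over all tested genes it was 0.176 in APAP_MSC, 0.218 in APAP_HDF and 0.230 in APAP livers. These sets were not matched for abundance, and counting error adds to the SD of low genes. The wider spread in APAP_HDF comes with library 1, which held the lowest value of all 9 libraries in 67 of 89 nuclear members and 12 of 15 mitochondrially encoded ones, so counts of calls and medians that use APAP_HDF are also given without it.

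Levels per kilobase of transcript separated the genomes of origin. The 13 mitochondrially encoded protein genes had a median of 4850 CPM per kb in APAP_MSC, 4016 in APAP_HDF and 4324 in APAP livers, with mt-Co1, the catalytic subunit of complex IV, highest (13900 CPM per kb in APAP_MSC, 10690 in APAP_HDF and 12270 in APAP livers). The nuclear members with a known length had a median of 90.9 CPM per kb in APAP_MSC, 71.4 in APAP_HDF and 70.6 in APAP livers, and Atp5b, the catalytic beta subunit of ATP synthase, was the highest at 522 CPM per kb in APAP_MSC, 427 in APAP_HDF and 440 in APAP livers. Within the nuclear set, complex I assembly factors were the least abundant class, with medians of 9.30 CPM per kb in APAP_MSC, 7.66 in APAP_HDF and 8.64 in APAP livers. As a share of all counts, the 89 nuclear members took 0.910%, 0.923% and 0.903% in APAP_MSC, 0.725%, 0.806% and 0.784% in APAP_HDF, and 0.785%, 0.784% and 0.792% in APAP livers. All 3 APAP_MSC shares lay above all 6 others, while the APAP_HDF and APAP shares overlapped.

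**Figure D1:**
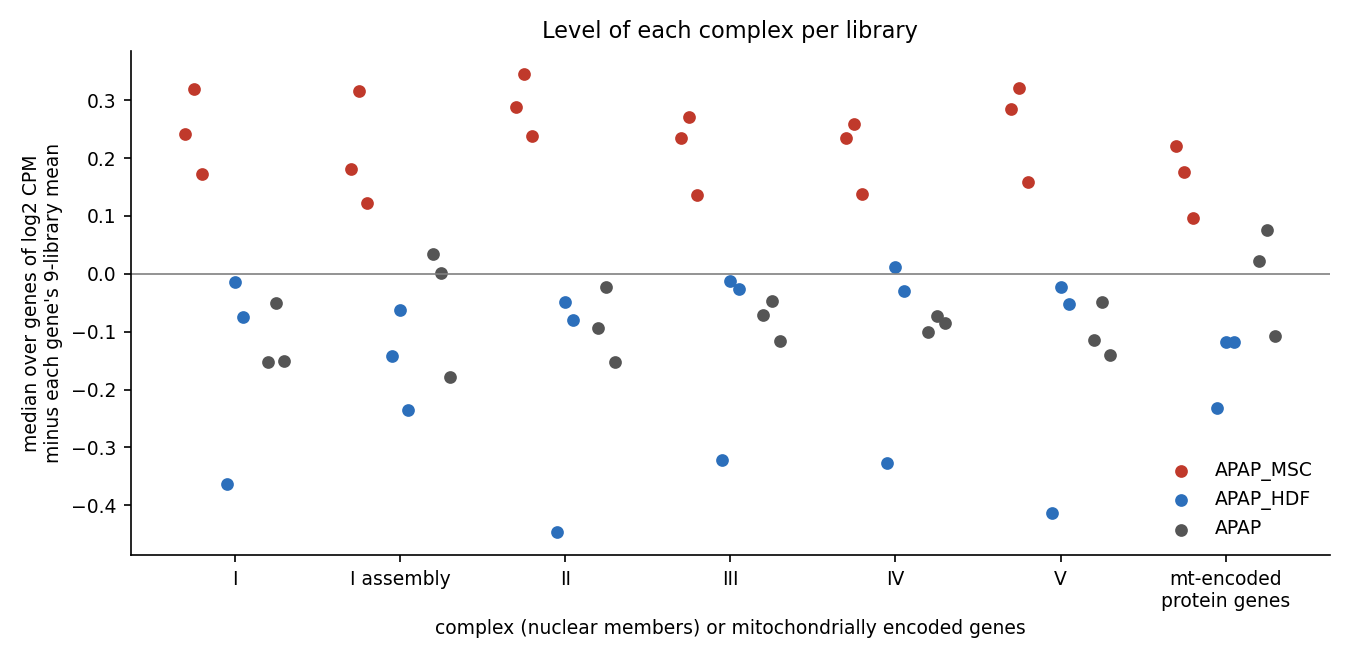
Level of each complex in each library: the median over its genes of log2 CPM (y axis) after subtracting each gene's mean over 9 libraries, by complex (x axis); each point is 1 library. The 3 APAP_MSC libraries lie highest for every nuclear complex, and APAP_HDF library 1 lies lowest for complexes I, II, III, IV and V.

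In APAP_MSC livers compared with APAP livers, which asks what the MSC injection added to the overdose alone, most nuclear oxidative phosphorylation genes were higher by a modest amount. The median log2 fold change of the nuclear members was 0.35 (27.8% higher), beside −0.01 over all 17582 tested genes. Of 89 nuclear members, 87 had a positive log2 fold change, and in 78 every APAP_MSC library exceeded every APAP library, where 13.7% of all genes did so. By edgeR's quasi-likelihood test with Benjamini-Hochberg adjustment over all tested genes (adjusted p under 0.05), 10 nuclear members rose and 0 fell, against 2.83% of all genes called higher and 3.54% called lower. The 10 were Ndufa5, Ndufa6, Ndufa8, Ndufab1, Ndufb10, Ndufc2, Ndufs5, Sdhd, Atp5f1 and Atp5g1. The number of calls depended on which libraries were kept, among the members and over all genes, of which 498 were called higher with all libraries. Without APAP_MSC libraries 1, 2 and 3, 0, 0 and 2 members passed, with 145, 57 and 223 of all genes called higher. Without APAP libraries 1, 2 and 3 there were 2, 4 and 2 members, with 256, 341 and 365 genes. Without APAP_HDF libraries 2 and 3 there were 5 and 12 members, with 371 and 514 genes. There were 52 members, with 859 genes, without APAP_HDF library 1. That library is in neither group compared; the fit without it tested 18011 genes, and the cause of the higher count was not tested. The median log2 fold change of the nuclear members stayed between 0.32 and 0.40 in these 9 fits.

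**Figure D2:**
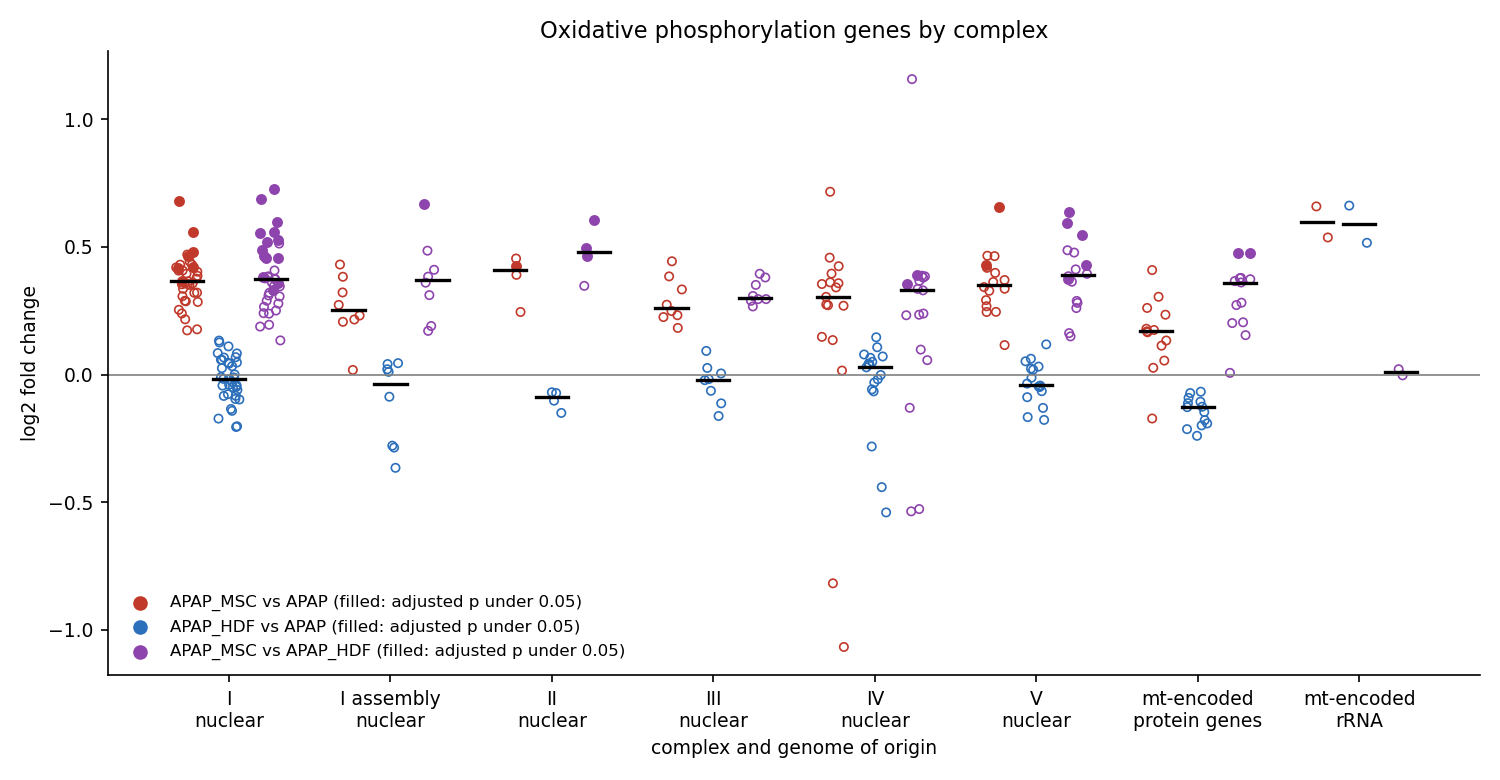
Log2 fold change (y axis) of each gene by complex and genome of origin (x axis) in 3 comparisons; filled points passed the edgeR test at an adjusted p under 0.05, and bars are medians. Nuclear complexes centre between 0.25 and 0.41 for APAP_MSC against APAP and near 0 for APAP_HDF against APAP; the widest points in complex IV are isoforms under 1 CPM.

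Complex I, the proton-pumping entry point for electrons from NADH, held 7 of the 10 calls. All 36 nuclear subunits were positive, with a median log2 fold change of 0.37, and 35 did not overlap between the groups. The calls were among the 29 supernumerary subunits, which surround the catalytic core (median 0.39), and 0 of the 7 nuclear core subunits passed (median 0.25); whether these classes differ was not tested.

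Ndufb10, a supernumerary subunit of the membrane arm, had 120, 118 and 104 CPM in APAP_MSC livers, against 67.3, 73.4 and 73.2 CPM in APAP livers. The groups were far apart, and the log2 fold change was 0.68 ± 0.12 (SE; adjusted p = 0.0143). Ndufa8, which lies on the intermembrane-space side of the membrane arm, had 106, 107 and 98.3 CPM in APAP_MSC livers, against 71.2, 78.4 and 73.5 CPM in APAP livers. All APAP_MSC libraries were above all APAP libraries, with a log2 fold change of 0.48 ± 0.10 (adjusted p = 0.0184). These calls were kept in 7 of the 9 fits that left out a library, and were lost without APAP_MSC library 1 or 2. The other calls against APAP were kept in fewer of the 9 fits. Atp5g1 was kept in 4, Ndufa5 and Ndufa6 in 3 each, and Ndufab1, Ndufc2, Ndufs5, Sdhd and Atp5f1 in 2 each.

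Ndufa5, a subunit of the peripheral arm, had 44.2, 45.2 and 38.9 CPM in APAP_MSC livers, against 26, 32.9 and 28.2 CPM in APAP livers (log2 fold change 0.56 ± 0.14, adjusted p = 0.0393). Ndufa6, an LYR-motif protein that docks the acyl carrier protein, had 117, 126 and 123 CPM in APAP_MSC livers, against 90.9, 87.9 and 87.2 CPM in APAP livers (0.47 ± 0.10, adjusted p = 0.0258). Ndufab1, the mitochondrial acyl carrier protein itself, had 40.2, 38.9 and 41.2 CPM in APAP_MSC livers, against 30.7, 30.4 and 32.2 CPM in APAP livers (0.37 ± 0.09, adjusted p = 0.0342). None of these 3 genes overlapped between the groups. Ndufs5, which carries intramolecular disulfide bonds on the intermembrane-space side, averaged 47.6 ± 3.61 CPM in APAP_MSC and 35.5 ± 1.05 CPM in APAP livers (SD, n = 3 each; log2 fold change 0.42, adjusted p = 0.0362 by edgeR). Ndufc2, a membrane-arm subunit, averaged 35.6 ± 0.76 CPM in APAP_MSC and 26.7 ± 1.75 CPM in APAP livers (log2 fold change 0.42, adjusted p = 0.0398 by edgeR).

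At the other end of the complex, the core subunit Ndufs1, which holds iron-sulfur clusters of the electron path, had 98.2, 92.9 and 99.3 CPM in APAP_MSC livers, against 97.8, 84.8 and 75 CPM in APAP livers. The groups overlapped, and the log2 fold change of 0.17 ± 0.10 did not pass (adjusted p = 0.359). None of the 8 Ndufaf assembly factors, which build complex I and are absent from the finished enzyme, passed the test; 8 were positive, 4 of them without overlap, with a median log2 fold change of 0.25. They ran between Ndufaf7, an arginine methyltransferase, at 0.02 ± 0.16, and Ndufaf8, a partner of Ndufaf5, at 0.43 ± 0.15 (adjusted p = 0.965 and 0.117). Ndufaf7 changed sign with total-count scaling, without APAP library 3 and without APAP_MSC library 1.

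Complex II, the enzyme shared with the tricarboxylic acid cycle, did not overlap between the groups for any of its 4 genes, and 1 passed. Sdhd, a membrane anchor subunit, had 149, 146 and 144 CPM in APAP_MSC livers, against 112, 110 and 105 CPM in APAP livers. The APAP_MSC values were tightly grouped above, and the log2 fold change was 0.43 ± 0.11 (adjusted p = 0.0465). The other anchor, Sdhc, had 136, 151 and 136 CPM in APAP_MSC livers, against 107, 110 and 105 CPM in APAP livers (0.39 ± 0.12, adjusted p = 0.0705). Sdhb, the iron-sulfur subunit, had 128, 135 and 116 CPM in APAP_MSC livers, against 91.2, 102 and 83.8 CPM in APAP livers (0.45 ± 0.13, adjusted p = 0.0557). Sdha, the flavoprotein that oxidizes succinate, had 404, 418 and 412 CPM in APAP_MSC livers, against 351, 362 and 328 CPM in APAP livers, the smallest log2 fold change of the 4 (0.24 ± 0.11, adjusted p = 0.210).

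In complex III, which passes electrons to cytochrome c, 0 of 8 nuclear subunits passed, while all 8 were positive without overlap (median log2 fold change 0.26). Uqcr11 had 91.6, 96.4 and 84.4 CPM in APAP_MSC livers, against 65.3, 80.3 and 63 CPM in APAP livers (0.38 ± 0.12, adjusted p = 0.0891). Uqcrq had 202, 227 and 199 CPM in APAP_MSC livers, against 127, 175 and 159 CPM in APAP livers (0.44 ± 0.15, adjusted p = 0.106). Uqcrc2, a large matrix-side subunit without a redox centre, had the lowest log2 fold change of the complex at 0.18 ± 0.10 (adjusted p = 0.297).

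In complex IV, the oxygen-reducing terminal enzyme, 0 of 17 nuclear members passed, 15 were positive (median log2 fold change 0.30), and 12 were higher and 2 lower without overlap. Cox6c had 106, 115 and 105 CPM in APAP_MSC livers, against 83.4, 85.0 and 86.4 CPM in APAP livers. This clear separation gave 0.35 ± 0.10, just outside the threshold (adjusted p = 0.0535). Cox8a, the widely expressed form of the smallest subunit, had 145, 143 and 136 CPM in APAP_MSC livers, against 100, 113 and 110 CPM in APAP livers (0.40 ± 0.11, adjusted p = 0.0538). Cox5b, a zinc-binding subunit, had the highest log2 fold change of the complex among members of at least 5 CPM (0.46 ± 0.13, edgeR adjusted p = 0.0665). Its levels were 165, 158 and 144 CPM in APAP_MSC livers and 91.8, 128 and 120 CPM in APAP livers.

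Several complex IV subunits exist in paired isoforms, 1 broadly expressed and the other typical of lung, muscle, heart or testis. The broad isoforms dominated in all groups. Cox4i1 had 229, 241 and 226 CPM in APAP_MSC livers, against 178, 191 and 195 CPM in APAP livers (log2 fold change 0.30, adjusted p = 0.150), and Cox6a1 had 204, 195 and 188 CPM in APAP_MSC livers, against 136, 162 and 164 CPM in APAP livers (0.34, adjusted p = 0.096). Cox6b1 had 147, 153 and 133 CPM in APAP_MSC livers, against 111, 112 and 113 CPM in APAP livers (0.36, adjusted p = 0.0709). Their partners Cox4i2, Cox6a2 and Cox6b2 stayed under 1 CPM in every library. Cox4i2 and Cox6b2 were the only members whose APAP_MSC libraries all lay below the APAP libraries. Cox4i2 had 7, 6 and 2 counts in APAP_MSC livers, against 11, 12 and 11 counts in APAP livers, and Cox6b2 averaged 0.182 ± 0.0562 CPM in APAP_MSC and 0.319 ± 0.0764 CPM in APAP livers (SD, n = 3 each). At this depth neither difference passed (edgeR adjusted p = 0.301 and 0.269), nor did Cox6a2 (log2 fold change 0.72 ± 0.60, adjusted p = 0.532). Of the Cox7a group, Cox7a2 averaged 89.5 ± 5.19 CPM in APAP_MSC and 74.2 ± 4.41 CPM in APAP livers (log2 fold change 0.27, edgeR adjusted p = 0.159), while the muscle form Cox7a1 stayed under 1 CPM in every library. Cox7a2l, a relative of Cox7a2 of which this mouse strain is known to carry a shortened form, had 62.7, 61.0 and 65.5 CPM in APAP_MSC livers, against 60.7, 56.3 and 53.7 CPM in APAP livers, a small separation (0.15 ± 0.09, adjusted p = 0.353). Ndufa4, named for complex I but a subunit of complex IV, averaged 172 ± 12.6 CPM in APAP_MSC and 142 ± 2.45 CPM in APAP livers (log2 fold change 0.27, edgeR adjusted p = 0.190), and its low paralog Ndufa4l2 averaged 1.03 ± 0.173 CPM in APAP_MSC and 1.01 ± 0.167 CPM in APAP livers.

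Complex V, the ATP synthase, had 2 of its 16 nuclear members called, both in the membrane-embedded Fo part and its stalks (median log2 fold change 0.38 over 10 members, 0.27 over the 5 F1 members of the catalytic head; the difference was not tested). Atp5f1, the b subunit of the peripheral stalk, had 257, 261 and 245 CPM in APAP_MSC livers, against 196, 194 and 177 CPM in APAP livers. The groups were well apart, with a log2 fold change of 0.43 ± 0.11 (adjusted p = 0.0403). Atp5b, the catalytic subunit, had 1031, 982 and 987 CPM in APAP_MSC livers, against 820, 888 and 823 CPM in APAP livers, the lowest log2 fold change among the complex V members of at least 5 CPM (0.24 ± 0.11, adjusted p = 0.219).

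The c subunit, which forms the rotating ring, is encoded by 3 genes whose mature proteins are identical. Atp5g1 had 158, 150 and 125 CPM in APAP_MSC livers, against 79.0, 109 and 87.2 CPM in APAP livers (log2 fold change 0.66 ± 0.16, adjusted p = 0.0351). Atp5g2 had 63.4, 63.5 and 57.5 CPM in APAP_MSC livers, against 46.9, 55.0 and 45.0 CPM in APAP livers (0.33 ± 0.10, adjusted p = 0.0825). Atp5g3, the most abundant, had 290, 263 and 263 CPM in APAP_MSC livers, against 219, 224 and 223 CPM in APAP livers (0.29 ± 0.11, adjusted p = 0.136). All 3 genes were free of overlap between the groups. Atp5g1 made up 30.9%, 31.6% and 28.1% of the counts of the 3 genes in APAP_MSC livers, 23.5%, 27.4% and 24.5% in APAP_HDF livers and 22.9%, 28.1% and 24.5% in APAP livers. The APAP_MSC shares lay above the rest, but the nearest pair was almost level, at 28.14% in APAP_MSC library 3 and 28.06% in APAP library 2. The 2 pseudogenes did not pass the test: Atp5k-ps2 had 2.89 to 4.04 CPM in APAP_MSC and 2.22 to 3.23 CPM in APAP livers, and Atp5l-ps1 had 0.352 to 0.510 CPM in APAP_MSC and 0.287 to 0.631 CPM in APAP livers. Reads shared between a parent gene and such a copy could be split by the counting.

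**Figure D3:**
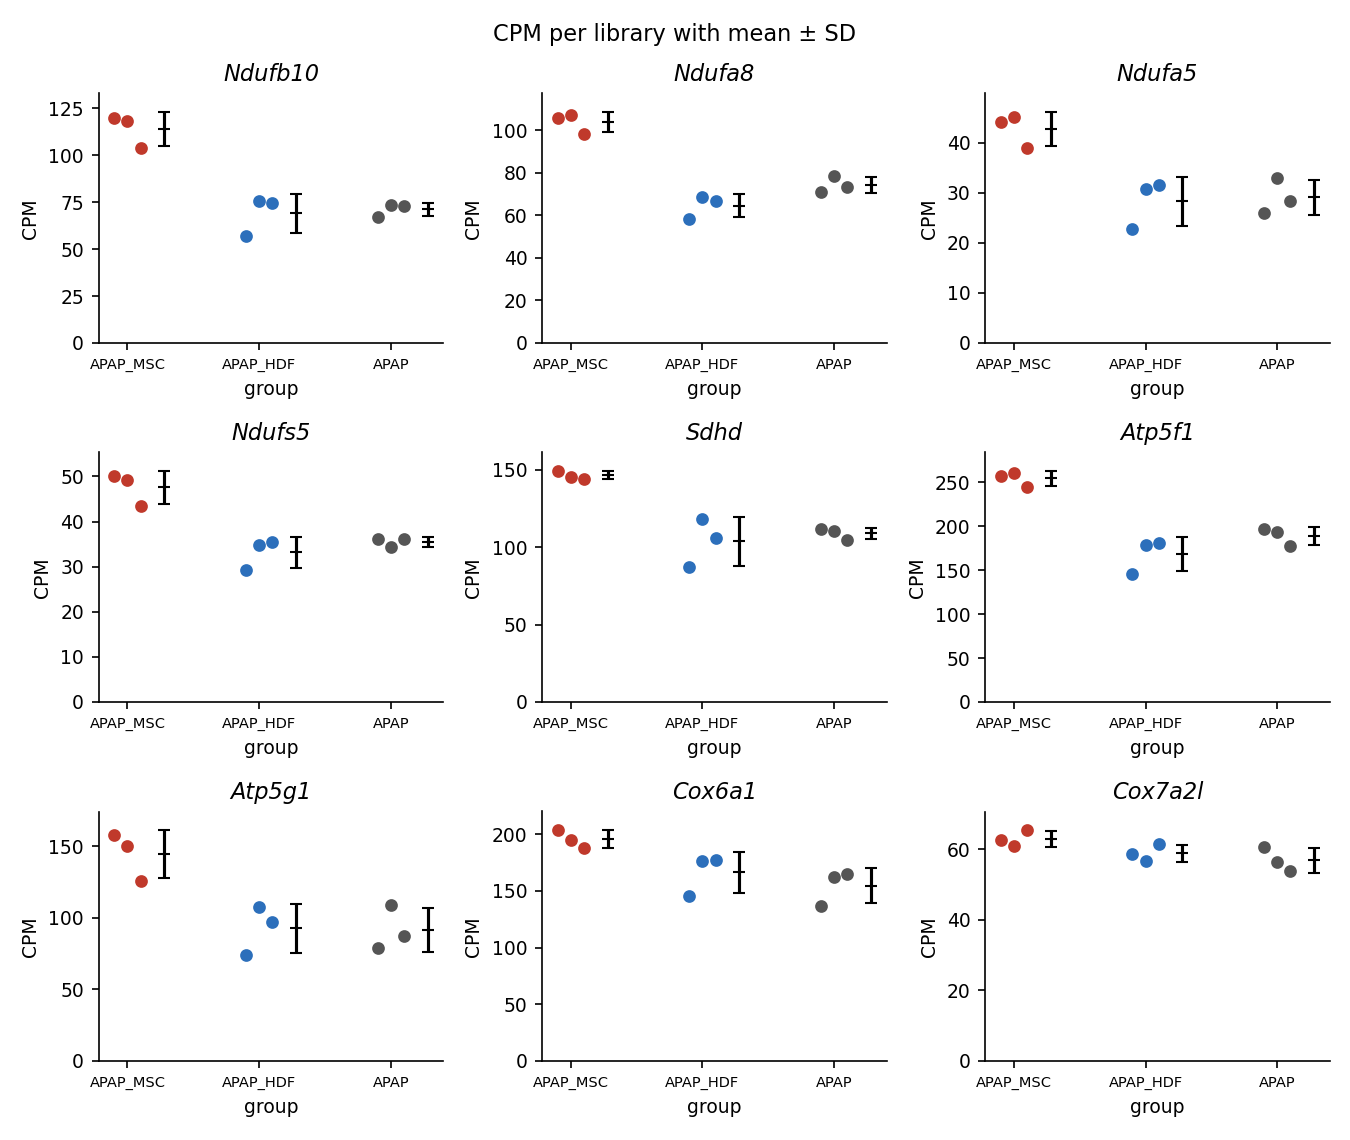
CPM (y axis, starting at 0) of 9 nuclear genes in each library by group (x axis), with mean and SD at the right of each group. Ndufb10, Ndufa8, Ndufa5, Ndufs5, Sdhd, Atp5f1 and Atp5g1 passed the test in APAP_MSC against APAP; Cox6a1 and Cox7a2l did not.

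The mitochondrially encoded protein genes moved less in APAP_MSC against APAP livers. None of the 13 passed; 12 were positive and 8 did not overlap, with a median log2 fold change of 0.17 (0.11 without APAP library 3, and 0.16 to 0.23 without any other library). That is under the nuclear median of 0.35. Total-count scaling lowered the median over all genes to −0.12, and with it the mitochondrial median was 0.06. The nuclear median fell as well. Less the median over all genes, the nuclear median was 0.36 and the mitochondrial one 0.18 under both TMM and total counts. In raw counts, which need no scaling between libraries, the 13 genes gave 7.78, 7.69 and 7.53 counts per count of the 89 nuclear members in APAP_MSC livers, 8.73, 7.48 and 7.63 in APAP_HDF livers and 9, 8.85 and 8.21 in APAP livers. Every APAP_MSC ratio was under every APAP ratio, and the APAP_HDF ratios spanned the gap between them.

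Among the 7 mitochondrially encoded complex I subunits, mt-Nd3 had the highest log2 fold change (0.41 ± 0.11, edgeR adjusted p = 0.057). Its levels were 423, 421 and 360 CPM in APAP_MSC livers, against 277, 335 and 294 CPM in APAP livers. mt-Nd1 averaged 6892 ± 679 CPM in APAP_MSC and 6284 ± 614 CPM in APAP livers (log2 fold change 0.13), while mt-Nd2 averaged 6446 ± 105 CPM in APAP_MSC and 5960 ± 243 CPM in APAP livers (0.11). mt-Nd4 averaged 6683 ± 143 CPM in APAP_MSC and 5959 ± 239 CPM in APAP livers (0.17). mt-Nd4l averaged 698 ± 11.3 CPM in APAP_MSC and 686 ± 58.6 CPM in APAP livers (0.03), and mt-Nd6, the only protein gene on the light strand, 2046 ± 198 CPM in APAP_MSC and 1970 ± 169 CPM in APAP livers (0.05; edgeR adjusted p between 0.461 and 0.915 for these 5 genes). With total-count scaling the log2 fold changes of mt-Nd4l and mt-Nd6 were negative, and that of mt-Nd4l was also negative without APAP library 3. mt-Nd5 was the only mitochondrially encoded member below 0, with 6433, 6385 and 6088 CPM in APAP_MSC livers, against 7150, 7775 and 6378 CPM in APAP livers. Its groups overlapped, and −0.17 ± 0.13 did not pass (adjusted p = 0.478).

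mt-Cytb, the mitochondrially encoded subunit of complex III, had 10805, 10851 and 10093 CPM in APAP_MSC livers, against 9613, 10025 and 8497 CPM in APAP livers (0.17 ± 0.13, adjusted p = 0.477). Of the 3 core subunits of complex IV, mt-Co1 had 21982, 22276 and 20151 CPM in APAP_MSC livers, against 19508, 19864 and 17511 CPM in APAP livers (0.18 ± 0.14, adjusted p = 0.486). mt-Co2 averaged 3789 ± 294 CPM in APAP_MSC and 3221 ± 134 CPM in APAP livers (log2 fold change 0.23), and mt-Co3 averaged 3464 ± 260 CPM in APAP_MSC and 2805 ± 147 CPM in APAP livers (0.30; edgeR adjusted p = 0.279 and 0.172). None of these 4 genes overlapped between the groups. The ATP synthase subunit genes mt-Atp6 and mt-Atp8 had log2 fold changes of 0.26 ± 0.13 and 0.17 ± 0.11 (edgeR adjusted p = 0.249 and 0.401). Several of these genes share bases in the GENCODE annotation: mt-Atp8 and mt-Atp6 share 43, mt-Nd5 and mt-Nd6 share 14 on opposite strands, and mt-Nd4l and mt-Nd4 share 7. How reads over shared bases were assigned is not given in the sources used here, nor is the use of strand.

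The mitochondrial ribosomal RNAs, which are part of the mitochondrial ribosome and were captured here in a poly(A) protocol, were read apart from the protein genes. mt-Rnr1, the small-subunit RNA, had 549, 544 and 699 CPM in APAP_MSC livers, 417, 637 and 712 CPM in APAP_HDF livers, and 343, 432 and 461 CPM in APAP livers. mt-Rnr2, the large-subunit RNA, had 995, 873 and 1208 CPM in APAP_MSC livers, 659, 1102 and 1322 CPM in APAP_HDF livers, and 464, 739 and 745 CPM in APAP livers. In both genes every APAP_MSC library exceeded every APAP library and the APAP_HDF libraries spread across both ranges. The log2 fold changes of APAP_MSC against APAP were 0.54 ± 0.19 and 0.66 ± 0.26 (adjusted p = 0.126 and 0.162). Per 100 counts in protein genes, the ribosomal RNAs gave 2.04, 1.87 and 2.74 counts in APAP_MSC livers, 1.89, 2.88 and 3.34 in APAP_HDF livers and 1.19, 1.66 and 1.95 in APAP livers, and these ranges overlap.

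**Figure D4:**
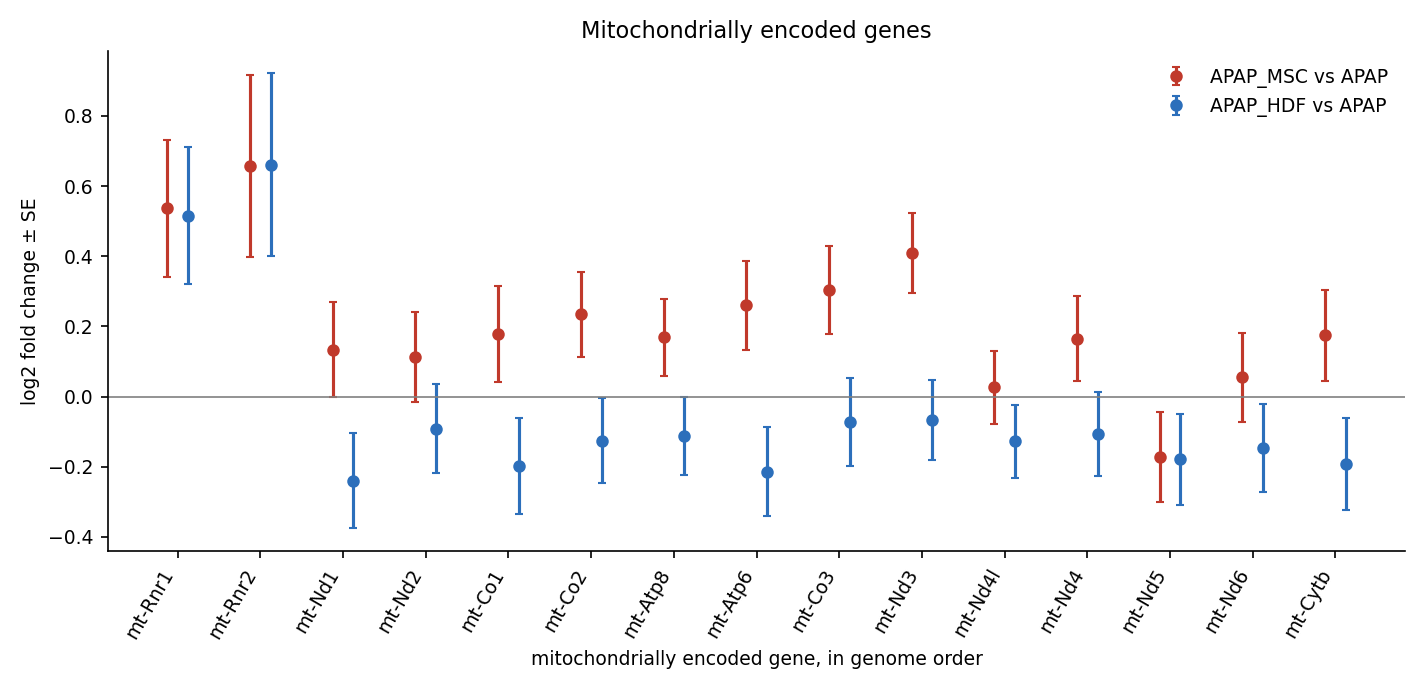
Log2 fold change with SE (y axis) of the 15 mitochondrially encoded genes in genome order (x axis), for APAP_MSC and for APAP_HDF livers, each against APAP livers. No point passed the edgeR test; mt-Nd5 lies below 0 in APAP_MSC, and in APAP_HDF all protein genes do, while both ribosomal RNAs lie above 0.

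In APAP_HDF livers compared with APAP livers, which asks what the injection of HDF added to the overdose, the nuclear genes were close to level. The median log2 fold change of the 89 nuclear members was −0.02, with 37 positive, and the median over all genes was −0.00. By edgeR 0 members passed and 0% of all genes did; at an unadjusted p under 0.05 there were 3 members of 106, against 8.78% of all genes, and DESeq2 called 0 members and 83 genes in all. The 3 members were mt-Rnr1 (0.52 ± 0.19, adjusted p = 0.542), mt-Rnr2 (0.66 ± 0.26, adjusted p = 0.544) and Ndufaf7 (−0.37 ± 0.16, adjusted p = 0.552). Ndufaf7 had 16.3, 13 and 10.4 CPM in APAP_HDF livers, against 18.3, 18 and 14.8 CPM in APAP livers, and its groups overlapped. With all libraries 39 of 106 members were positive. The nuclear median was 0.06 with 68 members positive without APAP_HDF library 1, −0.10 with 19 positive without library 2 and −0.06 with 28 positive without library 3. Without APAP libraries 1, 2 and 3 it was −0.03, −0.01 and −0.06, and 0 members passed in any of these fits. Without APAP_HDF library 1, mt-Rnr1, mt-Rnr2 and Ndufaf7 were at 0.71, 0.90 and −0.55 (edgeR adjusted p = 0.168, 0.181 and 0.202).

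The 13 mitochondrially encoded protein genes were all negative in this comparison, with a median log2 fold change of −0.13 (−0.12 without APAP_HDF library 1), and none passed. In 5 of 106 members, named after their values were seen, every APAP_HDF library lay below every APAP library: mt-Nd1, mt-Cytb, mt-Co1, Ndufa8 and Atp5a1. Of all genes 6.08% did so, a larger share, so these 5 are a description and are not read as a result about the members. mt-Nd1 had 5228, 5250 and 5484 CPM in APAP_HDF livers, against 5880, 6991 and 5980 CPM in APAP livers (−0.24 ± 0.14, adjusted p = 0.634). mt-Cytb had 7917, 8276 and 8443 CPM in APAP_HDF livers, against 9613, 10025 and 8497 CPM in APAP livers (−0.19 ± 0.13, adjusted p = 0.685). mt-Co1 averaged 16516 ± 516 CPM in APAP_HDF and 18961 ± 1268 CPM in APAP livers (log2 fold change −0.20, edgeR adjusted p = 0.688). Among nuclear genes, Ndufa8 had 58.3, 68.5 and 66.8 CPM in APAP_HDF livers, against 71.2, 78.4 and 73.5 CPM in APAP livers (−0.21 ± 0.10, adjusted p = 0.574). Atp5a1, the alpha subunit of the catalytic head, had 603, 672 and 671 CPM in APAP_HDF livers, against 720, 722 and 688 CPM in APAP livers (−0.13 ± 0.10, adjusted p = 0.720). APAP_HDF library 1 was the lowest of the 9 libraries in all 5 of these genes.

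APAP_MSC livers compared with APAP_HDF livers, which sets MSC against another injected cell, gave the largest number of calls. It shares its APAP_MSC libraries with the first comparison, so the 2 are not independent. By edgeR 27 members rose and 0 fell, against 4.9% of all genes called higher and 3.99% called lower. Of 106 members 102 were positive. In 87 every APAP_MSC library exceeded every APAP_HDF library, where 16.8% of all genes did so, and in 1, the isoform Cox6b2 under 1 CPM, every APAP_MSC library was lower. The nuclear members had a median log2 fold change of 0.36 and the mitochondrially encoded protein genes one of 0.36, beside −0.02 over all genes. Leaving out a library gave 10, 18 and 18 calls without APAP_HDF libraries 1, 2 and 3, 5, 4 and 20 without APAP_MSC libraries 1, 2 and 3, and 34, 25 and 30 without APAP libraries 1, 2 and 3. The calls for Ndufa8, Ndufb10, Ndufc2 and Atp5f1 were kept in all 9 of these fits. Without APAP_HDF library 1 the nuclear median was 0.28 and the mitochondrial one 0.32.

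By complex, the calls were 14 of 36 nuclear subunits of complex I, 1 of 8 assembly factors, 3 of 4 in complex II, 0 of 8 in complex III, 2 of 17 in complex IV, 5 of 16 in complex V and 2 of 13 mitochondrially encoded protein genes. Without APAP_HDF library 1 they were 5 of 36, 1 of 8, 2 of 4, 0 of 8, 0 of 17, 2 of 16 and 0 of 13 in the same order, against 3.1% of all genes. Of the 27 calls, 9 were kept in that fit: Ndufa6, Ndufa8, Ndufb10, Ndufc2, Ndufs5, Sdhb, Sdhd, Atp5c1 and Atp5f1, at log2 fold changes of 0.38 to 0.63. The 18 that were lost stayed positive, at 0.29 to 0.70 (edgeR adjusted p = 0.0516 to 0.0948), and Ndufaf7 was called in their place (0.57 ± 0.15, adjusted p = 0.0496). Ndufa8 had 106, 107 and 98.3 CPM in APAP_MSC livers, against 58.3, 68.5 and 66.8 CPM in APAP_HDF livers (log2 fold change 0.69 ± 0.10, adjusted p = 0.00284). Ndufb10 had 120, 118 and 104 CPM in APAP_MSC livers, against 56.9, 75.7 and 74.4 CPM in APAP_HDF livers (0.73 ± 0.12, adjusted p = 0.00584). Both genes were far from overlapping. Ndufc2 averaged 35.6 ± 0.76 CPM in APAP_MSC and 24.2 ± 2.65 CPM in APAP_HDF livers (log2 fold change 0.56, edgeR adjusted p = 0.0101), and Ndufs5 averaged 47.6 ± 3.61 CPM in APAP_MSC and 33.2 ± 3.42 CPM in APAP_HDF livers (0.52, edgeR adjusted p = 0.013). The called assembly factor, Ndufaf3, had 9.19, 12.0 and 8.25 CPM in APAP_MSC livers, against 6.37, 5.77 and 6.36 CPM in APAP_HDF livers (0.67 ± 0.19, adjusted p = 0.0479).

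In complex II, Sdhb averaged 126 ± 9.34 CPM in APAP_MSC and 83.1 ± 12.7 CPM in APAP_HDF livers, and Sdhc 141 ± 8.72 CPM in APAP_MSC and 102 ± 15.8 CPM in APAP_HDF livers (SD, n = 3 each). Sdhd averaged 146 ± 2.59 CPM in APAP_MSC and 104 ± 15.7 CPM in APAP_HDF livers. The log2 fold changes of these 3 genes, in that order, were 0.60, 0.46 and 0.50 (edgeR adjusted p = 0.016, 0.0331 and 0.0218). Sdha, at 404, 418 and 412 CPM in APAP_MSC livers against 280, 347 and 343 CPM in APAP_HDF livers, did not pass (0.35 ± 0.11, adjusted p = 0.0721). In complex III the smallest p belonged to Uqcrb, a ubiquinone-binding subunit, with 82.9, 83.5 and 72.2 CPM in APAP_MSC livers and 52.2, 65.8 and 63.5 CPM in APAP_HDF livers (0.39 ± 0.11, adjusted p = 0.0507). The complex IV calls were Cox6c (0.36 ± 0.10, adjusted p = 0.0446) and Cox7c (0.39 ± 0.11, adjusted p = 0.0451), each kept in 2 of 9 fits that left out a library. Cox7a2l had the lowest log2 fold change among nuclear members of at least 5 CPM (0.10 ± 0.09), which was negative with total-count scaling. The uncalled value of 1.16 ± 0.64 for Cox6a2 stood on 4 to 22 counts a library.

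In complex V, Atp5f1 had 257, 261 and 245 CPM in APAP_MSC livers, against 146, 178 and 181 CPM in APAP_HDF livers (0.59 ± 0.11, adjusted p = 0.00875). Atp5c1, the gamma subunit that forms the rotating shaft, had 181, 174 and 164 CPM in APAP_MSC livers, against 100, 123 and 131 CPM in APAP_HDF livers (0.55 ± 0.11, adjusted p = 0.014). Atp5g1 had 158, 150 and 125 CPM in APAP_MSC livers, against 74.0, 108 and 97.0 CPM in APAP_HDF livers (0.64 ± 0.16, adjusted p = 0.0315). These genes did not overlap between the groups. Of the mitochondrially encoded genes, mt-Nd3 had 423, 421 and 360 CPM in APAP_MSC livers, against 268, 294 and 303 CPM in APAP_HDF livers (0.48 ± 0.11, adjusted p = 0.0277). mt-Atp6 had 4439, 4614 and 4040 CPM in APAP_MSC livers, against 3005, 3247 and 3170 CPM in APAP_HDF livers (0.47 ± 0.13, adjusted p = 0.0411). The lowest log2 fold change of the 13 was that of mt-Nd5 (0.01 ± 0.13), with 6433, 6385 and 6088 CPM in APAP_MSC livers and 6235, 6027 and 6559 CPM in APAP_HDF livers.

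mt-Nd5 and mt-Co1 lie on the same precursor strand, and their ratio within a library does not depend on scaling. For 100 counts in mt-Co1 there were 29.3, 28.7 and 30.2 counts in mt-Nd5 in APAP_MSC livers, 38.9, 35.3 and 39.9 in APAP_HDF livers and 36.7, 39.1 and 36.4 in APAP livers. The 3 APAP_MSC ratios lay below the other 6, APAP_HDF library 1 being the first of its 3, and those 6 overlapped each other. This ratio was chosen after the values were seen and is given as a description, without a test.

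**Figure D5:**
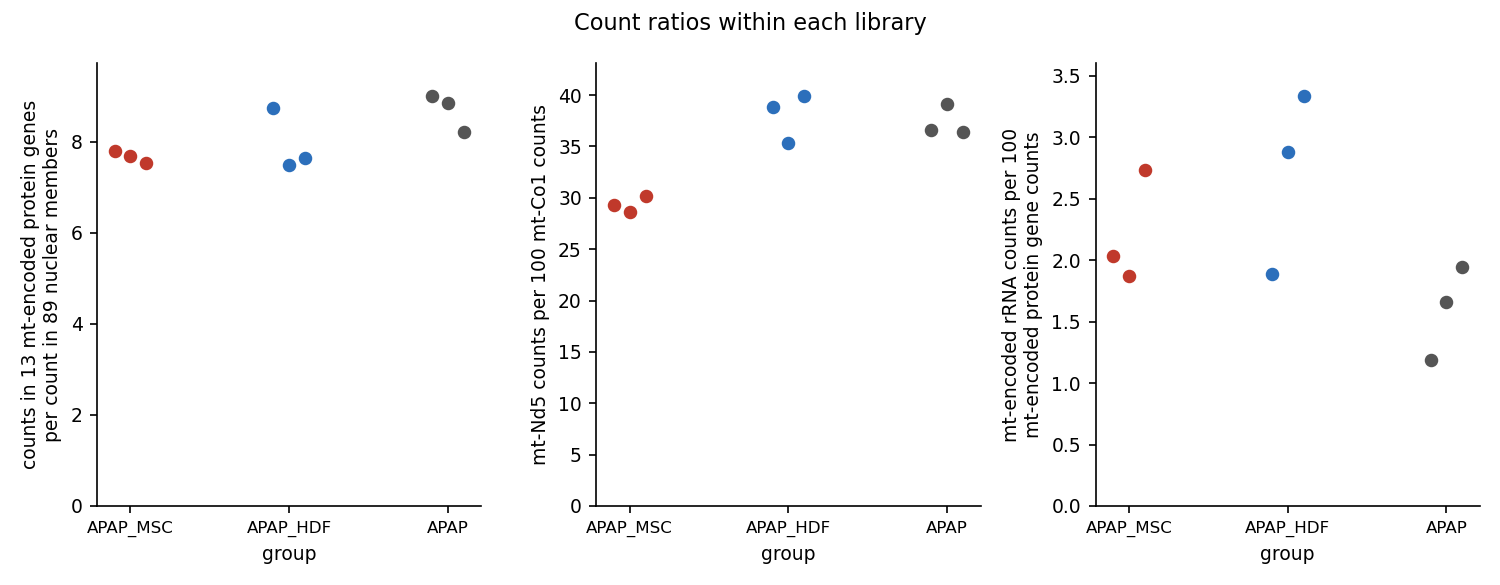
Ratios of raw counts within each library (y axes, starting at 0) by group (x axis), 1 point per library: the 13 mitochondrially encoded protein genes to the 89 nuclear members, mt-Nd5 to mt-Co1, and ribosomal RNA to protein genes. The mt-Nd5 ratios of APAP_MSC lie between 28.7 and 30.2 per 100 counts, under all others.

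Genes around the respiratory chain were read from 13 further lists. In APAP_MSC against APAP livers, the tricarboxylic acid cycle list had 3 of 18 genes called higher and 0 lower (median log2 fold change 0.15). Of all genes, 2.83% were called higher and 3.54% lower. The list also holds the pyruvate dehydrogenase genes Pdha1, Pdhb, Dlat and Pdhx, and of the called genes only Cs belongs to the cycle itself. Cs, citrate synthase, had 181, 171 and 151 CPM in APAP_MSC livers, against 93.2, 117 and 103 CPM in APAP livers (0.68 ± 0.11, adjusted p = 0.00995). Pdhb and Dlat, subunits of pyruvate dehydrogenase, were at 0.46 ± 0.09 (adjusted p = 0.0189) and 0.53 ± 0.11 (adjusted p = 0.0205), and Dlat was named after its value was seen. Of 17 genes for electron carriers and coenzyme Q synthesis, 1 rose (median 0.26): Gpd2, the glycerol-3-phosphate dehydrogenase that feeds coenzyme Q, with 37.2, 42.3 and 41.3 CPM in APAP_MSC livers against 24.8, 28.2 and 29.4 CPM in APAP livers (0.55 ± 0.11, adjusted p = 0.0185).

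Assembly factors outside the name rule gave single calls, and against the 2.83% of all genes called higher 1 call in a list this short is not read as a result about the list. Timmdc1 was 1 of 12 for complex I (0.37, edgeR adjusted p = 0.048), Higd1a 1 of 22 for complex IV (0.50, edgeR adjusted p = 0.0267) and Fmc1 1 of 5 for complex V (0.77, edgeR adjusted p = 0.0245), and 0 of 4 and 0 of 6 passed for complexes II and III. The medians of these 5 lists were 0.26, 0.10, 0.27, 0.35 and 0.32 in that order. Of 13 mitochondrial chaperones and proteases 1 rose (median 0.07): Hspe1, the small chaperonin, with 122, 126 and 149 CPM in APAP_MSC livers against 87.0, 87.7 and 73.1 CPM in APAP livers (0.68 ± 0.13, adjusted p = 0.0175). Of 10 antioxidant genes 1 fell and 0 rose (median 0.15): Gsr, glutathione reductase, had 147, 138 and 153 CPM in APAP_MSC livers against 185, 199 and 187 CPM in APAP livers (−0.38 ± 0.10, adjusted p = 0.0467).

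Lists for regulation of the chain had no call in this comparison. Of 28 genes for mitochondrial DNA maintenance, transcription and RNA stability 0 passed (median 0.07), with Fastkd1 and Grsf1 at the smallest p (0.29 and 0.25, edgeR adjusted p = 0.145 for both). Of 14 regulators of mitochondrial biogenesis 0 passed (median 0.00), with Nrip1 and Gabpb2 at the smallest p (−0.29 each, edgeR adjusted p = 0.142 and 0.177). Carriers, porins, import and cristae had 0 of 19 (median 0.10), and uncoupling proteins 0 of 4.

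In APAP_MSC against APAP_HDF livers 4.9% of all genes were called higher and 3.99% lower. The tricarboxylic acid cycle list, with its pyruvate dehydrogenase genes, had 4 of 18 called higher (median 0.21). There were 3 of 17 for electron carriers (0.29), 3 of 12 for complex I assembly (0.30), 3 of 19 for carriers, porins, import and cristae (0.13) and 2 of 13 chaperones and proteases (0.11). Of the 10 antioxidant genes 2 were called higher and 1 lower (0.14). Single genes were called higher among 6 assembly factors of complex III (0.29), 22 of complex IV (0.21) and 5 of complex V (0.22), and 0 of 4 passed for complex II (0.36), 0 of 28 and 0 of 14 for the transcription and biogenesis lists (0.08 and −0.16) and 0 of 4 uncoupling genes (−0.06). Without APAP_HDF library 1 the lists with a call were the tricarboxylic acid cycle (3 genes), electron carriers (3), and complex I assembly, complex V assembly, carriers and antioxidant genes (1 each, all higher). In that fit 3.1% of all genes were called higher. In APAP_HDF against APAP livers no gene of these lists passed, as no gene did at all.

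Some markers of other cell types differed between the groups that these results compare. Of all genes, 2.83% were called higher and 3.54% lower in APAP_MSC against APAP, and 4.9% and 3.99% in APAP_MSC against APAP_HDF. Beside these shares, a single call in a list this short is not read as a result about the cell type. The 12 macrophage markers summed to 64.6 to 88.8 CPM in APAP_MSC livers, 98.5 to 133 CPM in APAP_HDF livers and 132 to 189 CPM in APAP livers, and 6 of 12 were called lower in APAP_MSC against APAP. The 8 neutrophil markers summed to 2.87 to 4.21 CPM in APAP_MSC, 3.37 to 11.0 CPM in APAP_HDF and 9.54 to 12.7 CPM in APAP livers, with 4 of the 6 tested called lower in APAP_MSC against APAP. The 10 sinusoidal endothelial markers summed to 162 to 184 CPM in APAP_MSC, 219 to 322 CPM in APAP_HDF and 230 to 355 CPM in APAP livers, with 4 of 10 called lower. Of 11 hepatocyte markers 0 passed in APAP_MSC against APAP, with a median log2 fold change of 0.09 and 6 positive. The 10 stellate and fibroblast markers had 2 of 10 called lower and the 5 tested erythroid markers 1 called higher, and Kupffer, cholangiocyte and lymphocyte lists had none called. In APAP_MSC against APAP_HDF, 4 of 7 cholangiocyte markers were called higher (median log2 fold change 1.12), while 1 of the 7 lay lower without overlap. The 7 summed to 116 to 132 CPM in APAP_MSC, 99.5 to 104 CPM in APAP_HDF and 95.2 to 149 CPM in APAP livers. In the same comparison 4 of 10 endothelial markers (median −0.65), 2 of 12 macrophage markers (−0.71) and 1 of 6 neutrophil markers (−1.08) were called lower, while 1 of 10 stellate and fibroblast, 1 of 5 erythroid and 1 of 11 hepatocyte markers were called higher. Erythroid markers summed to 168 to 275 CPM in APAP_MSC, 89.4 to 110 CPM in APAP_HDF and 70.0 to 234 CPM in APAP livers. Without APAP_HDF library 1, 3 cholangiocyte, 1 erythroid and 1 hepatocyte markers were called higher and 4 endothelial and 2 macrophage markers lower. Of all genes, 3.1% were called higher and 2.37% lower in that fit. Skeletal muscle and heart markers summed to at most 0.543 CPM in any library. None of the matched markers was at 0 in all 9 libraries. The part of these differences in cell markers in the results above was not tested.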

How the data were processed

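Poly(A) RNA of 9 mouse liver pieces was sequenced, in 3 groups of 3. The authors deposited a table of raw read counts per gene symbol, whole numbers per the file headers and values; a table of normalized values was not used. HISAT2, Subread and DESeq2, with the builds mm39 and GRCm39, are named without versions or roles per the submitters' processing notes; the annotation and use of strand are not given in the sources used here. All 9 count columns were matched to a group by name, with 0 left over, and none to a replicate number.

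The members and gene lists were chosen with earlier results of these data known. Counts were filtered with filterByExpr (17582 genes kept), scaled by TMM and tested with edgeR 4.0.16 in R 4.3.3: a quasi-likelihood fit with robust moderation to all 9 libraries, group as the only term, two-sided, Benjamini-Hochberg adjustment over all genes, called at an adjusted p under 0.05. The biological coefficient of variation was 0.197. The SE is the log2 fold change divided by the square root of the F statistic. Scripts were tested on simulated data. Counts limit precision for low genes, and a count of 0 allows up to 3 counts, for counting error only. DESeq2 1.42.0, limma 3.58.1 (voom), other scalings, filters and leaving out each library were alternatives.

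Genes named were drawn by a rule: all mitochondrially encoded genes, complex II, listed isoform groups and up to 15 called members per comparison. Per complex it also took the 2 smallest p and the highest and lowest log2 fold change at a mean of at least 5 CPM. From each other list it took 2 genes. Not every gene under this rule is given in every comparison or list. Genes added after their values were seen are stated. Lengths come from GENCODE M21 (GRCm38) principal transcripts, with 3 members unmatched, and promoters from RefSeq GRCm38.p6; neither is the build of the counts, and no coordinates were joined to them.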

Additional observations from a re-analysis of the deposited data

How the results depend on the processing

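Directions of the nuclear and mitochondrial medians were kept in APAP_MSC against each other group under every setting tried. Members called higher in APAP_MSC against APAP numbered 10 as reported, 4 with total counts and no scaling, 35 with DESeq2's test and 29 with only the 2 groups in the fit, and 0 to 52 when 1 library was left out; with DESeq2 size factors, scaling on nuclear genes, limma-voom, no filter or the members' filter, and an older quasi-likelihood form added after seeing the data, they numbered 9 to 13. In APAP_MSC against APAP_HDF the count was 27, with 16 under total counts, 54 under DESeq2's test and 4 to 34 when 1 library was left out. The number of all genes called higher moved as well. Against APAP it was 498, with 347 under total counts, 904 under DESeq2's test and 657 with only the 2 groups. Leaving out 1 library gave 57 to 859. Against APAP_HDF it was 862, with 596 under total counts, 1337 under DESeq2's test and 250 to 1017 when 1 library was left out. Total-count scaling moved the median over all genes to −0.12 and −0.14 in these comparisons. It brought the medians of APAP_MSC against APAP to 0.065 for mitochondrially encoded members and 0.061 for the protein genes alone. Those of APAP_MSC against APAP_HDF became 0.25 for nuclear members, 0.16 for mitochondrially encoded members and 0.24 for the protein genes. Less the median over all genes, the nuclear median of APAP_MSC against APAP was 0.36 with TMM and with total counts. Under total counts Ndufaf7 (−0.092), mt-Nd4l (−0.083) and mt-Nd6 (−0.056) turned negative against APAP, and Cox7a2l (−0.021) and mt-Nd5 (−0.11) against APAP_HDF. Leaving out 1 library gave Ndufaf7 −0.073 to 0.091 and mt-Nd4l −0.040 to 0.091 against APAP, and mt-Nd5 −0.022 to 0.053 against APAP_HDF.

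In APAP_HDF against APAP 0 members passed under every setting. The nuclear share of counts in APAP_MSC, APAP_HDF and APAP averaged 0.912%, 0.772% and 0.787%, with TMM-scaled library sizes 0.962%, 0.753% and 0.769%, and without the 10 most abundant genes 1.13%, 0.964% and 0.981%; the mitochondrial share was 7.15%, 6.28% and 6.94%, then 7.54%, 6.10% and 6.79%, then 6.33%, 5.72% and 6.24%. Apart from the settings' own construction (fewer samples, another denominator), the cause of these shifts was not tested. No paired analysis was possible because the table's columns carry no replicate numbers. Values by complex, list and gene without APAP_HDF library 1 were added after seeing the data. Low isoforms under 1 CPM limit what depth can show.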
